A study of Mus musculus with 32 samples.

Results

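The secreted products of goblet cells, the mucus-making cells of the intestinal epithelium, are described here by the RNA of 9 genes: Muc2, Fcgbp, Clca3, Agr2, Zg16, Retnlb, Reg4, Tff3 and Spink4. They were taken by gene symbol, a rule that uses no measured value, from the gene tables of all 32 libraries. Of the 9 symbols, 8 had a record among the 23236 symbols of the tables, and the RNA of Muc2 was present in records that carry no symbol. Expression is given as FPKM, a fragment count scaled for transcript length and for the number of fragments mapped, after a rescaling between libraries. Levels can thus be set side by side between genes, within the limits of the scale given below.

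Goblet cells arise from crypt stem cells through secretory progenitors that need the transcription factor Atoh1. Their granules hold Muc2, the gel-forming mucin of the intestine, which is assembled in the endoplasmic reticulum, glycosylated in the Golgi and swells on release into the mucus that covers the epithelium. In the mouse colon the inner part of that mucus keeps most bacteria off the epithelium. The stomach is coated by other gel-forming mucins, Muc5ac and Muc6, made by surface and gland mucous cells.

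Total RNA without ribosomal RNA had been sequenced from 16 percc1-/- and 16 wild-type tissues of the digestive tract, each percc1-/- tissue having a wild-type partner matched for region and age (16 pairs). The percc1-/- mice were homozygous for a deletion in which 1512 bases of chromosome 17 (positions 25175032 to 25176543, given as mm9) had been exchanged for a loxP site in W4/129S6 embryonic stem cells. Both genotypes were of mixed 129SvEv and C57BL/6 background, and the line was kept by mating siblings. The 3 pairs of large bowel were rectum at P5, colon at P5 and, at P1, both together. Stomach gave 5 pairs (whole organ at P1 and P5, its bottom part at P10, P15 and P20), small intestine 7 (top part at P1, P5 and P15, bottom part at P1, P5, P10 and P20) and the whole gut, stomach included, 1 pair at E14.5. P stands for days after birth and E for days of gestation. Gut contents had been squeezed out before freezing, and each tissue held every layer of the wall. The labels do not say whether libraries came from separate animals, nor whether an animal gave several regions. The p-values therefore rest on the spread between these libraries, part of which may be technical, and shared animals would make them too small.

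The members differ in where they stand in mucus biology, and the promoters of those that the measurements below turn on are printed here. Muc2 is shown because its RNA was read by position rather than by symbol. Fcgbp and its neighbour 9530053A07Rik are shown because 5 libraries held both genes in 1 merged record. Agr2 and Reg4 are shown because Agr2 was abundant in the stomach and Reg4 was low there. The RefSeq promoter table of GRCm38.p6 matched 4 of the 9 members, and Tff3, Clca3, Zg16, Retnlb and Spink4 were not matched. Each sequence is the 250 bases before the annotated start, written 5′ to 3′ on the gene's strand, all on the plus strand: Muc2 at chr7:141690090-141690339, Fcgbp at chr7:28070986-28071235, 9530053A07Rik at chr7:28129216-28129465, Agr2 at chr12:35992675-35992924 and Reg4 at chr3:98221906-98222155. Capitals mark GATAA or its reverse complement TTATC, letters found in the binding motifs of GATA factors, and TTTATG or its reverse complement CATAAA, letters found in those of Cdx factors.
Muc2: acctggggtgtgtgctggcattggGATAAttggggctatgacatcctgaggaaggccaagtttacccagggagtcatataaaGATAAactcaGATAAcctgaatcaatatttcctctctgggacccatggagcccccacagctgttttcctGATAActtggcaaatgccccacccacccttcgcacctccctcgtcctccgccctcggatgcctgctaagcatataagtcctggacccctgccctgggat
Fcgbp: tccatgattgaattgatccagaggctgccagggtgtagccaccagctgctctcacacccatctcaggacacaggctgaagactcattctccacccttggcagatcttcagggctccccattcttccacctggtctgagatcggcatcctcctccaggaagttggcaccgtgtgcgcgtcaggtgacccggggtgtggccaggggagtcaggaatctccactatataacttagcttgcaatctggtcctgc
9530053A07Rik: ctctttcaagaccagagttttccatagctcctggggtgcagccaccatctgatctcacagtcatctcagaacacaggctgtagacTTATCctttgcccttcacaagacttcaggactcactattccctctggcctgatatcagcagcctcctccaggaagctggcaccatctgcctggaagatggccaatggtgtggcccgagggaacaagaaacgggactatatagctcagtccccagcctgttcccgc
Agr2: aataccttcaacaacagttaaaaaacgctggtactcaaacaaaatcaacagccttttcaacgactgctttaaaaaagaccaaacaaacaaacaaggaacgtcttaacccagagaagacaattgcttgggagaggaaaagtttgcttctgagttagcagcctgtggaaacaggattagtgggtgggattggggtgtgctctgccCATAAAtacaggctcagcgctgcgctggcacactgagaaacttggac
Reg4: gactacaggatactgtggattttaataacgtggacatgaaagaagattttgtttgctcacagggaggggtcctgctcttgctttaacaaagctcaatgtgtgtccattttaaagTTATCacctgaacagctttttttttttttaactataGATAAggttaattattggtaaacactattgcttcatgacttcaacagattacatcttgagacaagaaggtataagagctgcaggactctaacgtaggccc

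The Muc2 promoter held 4 GATAA matches, the Reg4 promoter 2, the 9530053A07Rik promoter 1 and the Fcgbp and Agr2 promoters none, where 22.6% of 32851 promoter windows of this length held at least 1. The Agr2 promoter held 1 TTTATG match, against 10.8% of windows with at least 1, and the other 4 held none. None of the matches overlapped another. In a global alignment the Fcgbp and 9530053A07Rik promoters shared 183 identical bases of 250 (73.2%), whereas the other pairs of these promoters shared between 52.8% and 60.0%. A match is a description of letters and not evidence of binding.

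On mm9, the build of the tables, Fcgbp (chr7:28856255-28905881, plus strand) and 9530053A07Rik (chr7:28914485-28949830, plus strand) follow each other, and Muc2 lies further along the same chromosome (chr7:148876268-148940595, plus strand). The other members lie at chr3:144667501-144695740 on the minus strand (Clca3, called Clca1 in current RefSeq), chr12:36719494-36730674 on the plus strand (Agr2), chr7:134193670-134195491 on the minus strand (Zg16), chr16:48816969-48819004 on the plus strand (Retnlb), chr3:98026079-98040671 on the plus strand (Reg4), chr17:31262251-31266591 on the minus strand (Tff3) and chr4:40867085-40878428 on the plus strand (Spink4). Each span is the whole annotated gene, introns included. Tff3 is the member on the targeted chromosome, 6.09 Mb from the stated positions if these are on mm9, which the next paragraph puts in doubt.

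The targeted locus gave a partial check of the genotype labels. No record carries the symbol Percc1. Records without a symbol lay wholly inside the stated positions in 4 percc1-/- libraries of 16 and in 0 of wild type, and the same position numbers fall inside Percc1 on GRCm38.p6 (chr17:25171154-25180818), which puts the build behind those positions in doubt. In mm9 the interval between Clcn7 and BC003965 (chr17:25299050-25321505) held such records in 0 of 5 percc1-/- and 5 of 5 wild-type stomach libraries, with summed levels of 5.16 to 13.9 FPKM; the choice of this interval came after its values were known. Outside the stomach it held them in 1 of 11 wild-type libraries, so the labels of the other organs could not be checked in this way. In 6 pairs markers of a neighbouring organ differed between the genotypes by more than 1 on the log2 scale in the median: gastric mucous genes in the colon at P5 (summed 73.5 FPKM in percc1-/-, 10.1 in wild type), exocrine pancreas genes in the top intestine at P1 (11.6 and 178) and P5 (28.2 and 233) and in the stomach pairs of P1 (4.35 and 104), P5 (27.9 and 122) and P10 (399 and 131). In addition gastric genes differed in the top intestine at P5 (4.22 in percc1-/-, 108 in wild type), liver genes in the stomach at P5 (267 and 30.6) and enterocyte genes in the stomach at P1 (183 and 84.3). Gastric mucous markers summed to between 79.0 and 635 FPKM in the 10 stomach libraries and to between 0.831 and 171 in the others.

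The files hold no counts, so the depth of a library is unknown, and precision is read from the bounds that Cufflinks gives with each FPKM. The highest symbol of a library lay between 62.5 and 245 FPKM. In percc1-/- colon at P5, for example, Tff3 stood at percentile 99.5 of all symbols with 31.7 FPKM. Abundant members thus stood among the highest symbols at moderate FPKM. Whether the scale narrows differences between such genes, and so makes them look even, was not tested. A value of 0 is written as listed at 0 and is not read as absence. In whole tissue, fewer cells of a type and less RNA per cell cannot be told apart. Where groups are said to overlap or not, or pairs are counted by direction, the values are only described. The share of all genes that do the same was not counted.

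**Figure D1:**
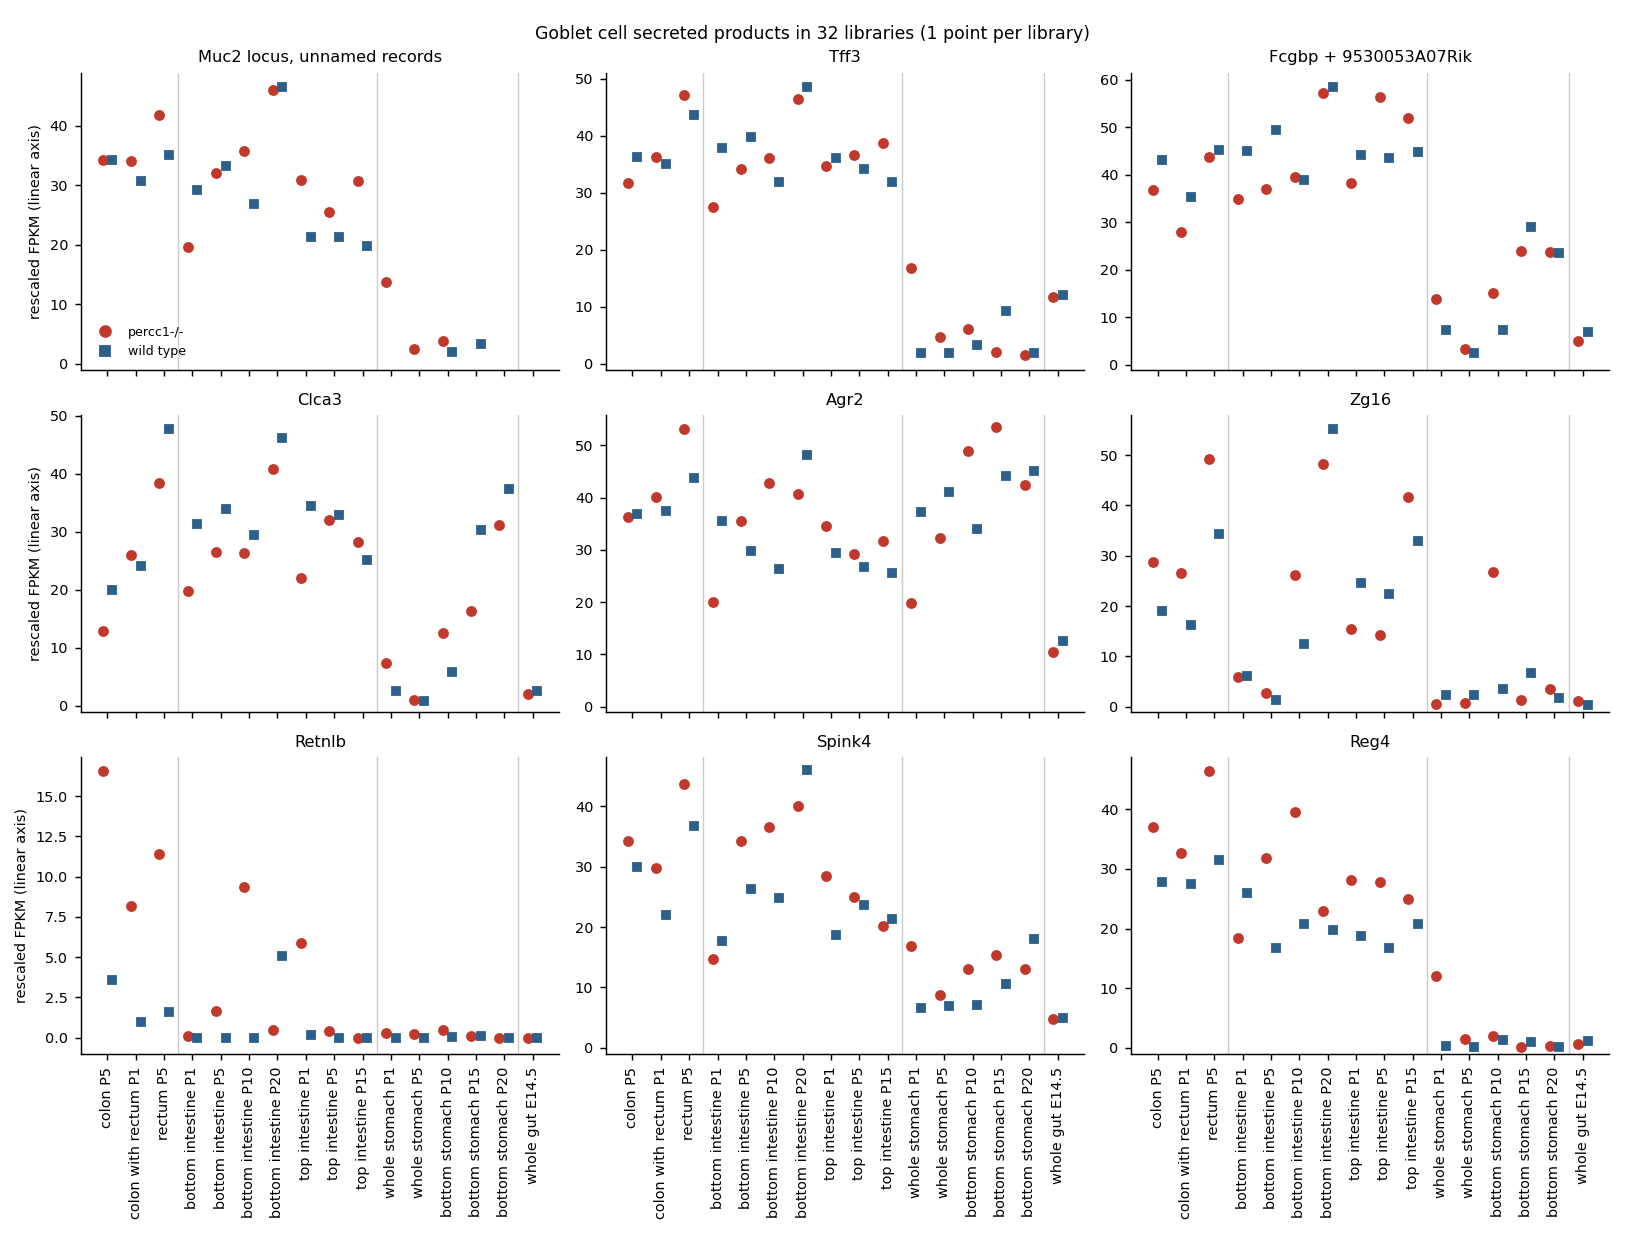
Rescaled FPKM (linear axis) of the 9 genes in each of the 16 pairs of region and stage along the horizontal axis, percc1-/- as red circles to the left of wild type as blue squares. The Muc2 panel shows records without a symbol over the gene, and the Fcgbp panel the sum with 9530053A07Rik. Agr2 stays high in stomach, where Tff3 and Reg4 are low, and Retnlb stands at 8.19 FPKM or more in the 3 percc1-/- large bowel libraries and at 3.57 FPKM or less in those of wild type.

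Among the structural parts of mucus, Muc2 had no symbol record in any of the 32 tables, and 25 libraries held records without a symbol over the gene, whose FPKM was averaged by the length they cover. In large bowel these read 34.0, 34.3 and 41.8 FPKM in percc1-/- (colon with rectum, colon, rectum) and 30.7, 34.2 and 34.99 FPKM in wild type. In small intestine the lowest, median and highest values were 19.7, 30.8 and 46.0 FPKM in percc1-/- and 19.8, 26.9 and 46.6 FPKM in wild type. The stomach held such records in 3 percc1-/- libraries (2.45, 3.79 and 13.7 FPKM) and 2 wild-type ones (1.88 and 3.24 FPKM), and neither whole gut library held any. These values rest on assembled fragments of the gene and are less certain than those of symbol records.

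Fcgbp, a large protein of repeated von Willebrand D domains that is bound to Muc2 in mucus, was read as the sum with its neighbour because the merged records cannot be split. The sum was 28.0, 36.9 and 43.8 FPKM in percc1-/- large bowel and 35.4, 43.2 and 45.2 FPKM in wild type. In small intestine it ranged from 34.98 to 57.2 FPKM (median 39.6) in percc1-/- and from 38.9 to 58.6 FPKM (median 44.8) in wild type, so the genotypes overlapped. Clca3, also called gob-5, is a secreted metalloprotease of goblet granules. It had 12.97 FPKM in percc1-/- and 19.9997 FPKM in wild-type colon at P5, the lowest intestinal value of each genotype, and 38.4 FPKM in percc1-/- and 47.7 FPKM in wild-type rectum of the same stage.

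Agr2 is a protein disulfide isomerase of the endoplasmic reticulum that mice need to make intestinal mucin, and it is secreted as well. It was abundant in every postnatal organ. Its means were 41.2 ± 6.41 FPKM in large bowel (SD, n = 6), 39.9 ± 9.56 FPKM in stomach (n = 10) and 32.5 ± 7.56 FPKM in small intestine (n = 14), and the ranges of the 3 organs overlapped. Txndc5, another disulfide isomerase, was most like Agr2 across the 30 postnatal libraries (Pearson r = 0.898). The search covered 13029 genes outside the members, each with a mean of at least 1 FPKM.

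Tff3, the trefoil peptide of intestinal mucus, was the most even member along the intestine. It ranged from 31.7 to 47.1 FPKM in the 6 large bowel libraries and from 27.5 to 48.6 FPKM in the 14 of small intestine. Spink4, of the Kazal-type protease inhibitors, ranged from 21.9 to 43.7 FPKM in large bowel and from 14.7 to 46.0 FPKM in small intestine. Reg4, a C-type lectin-like protein also made by deep crypt secretory cells of the mouse colon, ranged from 27.4 to 46.3 FPKM in large bowel and from 16.7 to 39.5 FPKM in small intestine. For these 3 genes the ranges of large bowel and small intestine overlapped. No stomach library reached the lowest intestinal value of Tff3 or Reg4, whereas Spink4 in stomach (6.55 to 18.03 FPKM) overlapped small intestine.

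Zg16 and Retnlb were the least even members. Zg16, a lectin-like protein that binds Gram-positive bacteria and aggregates them, ranged from 16.3 to 49.2 FPKM in large bowel, from 1.32 to 55.2 FPKM in small intestine and from 0.447 to 26.8 FPKM in stomach. Retnlb, the resistin-like molecule RELMβ, a bactericidal protein of goblet cells, ranged from 0.959 to 16.6 FPKM in large bowel and from 0 to 9.39 FPKM in small intestine, where 6 of 14 libraries listed it at 0. In stomach it reached no more than 0.452 FPKM and was listed at 0 in 4 of 10 libraries.

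The whole gut at E14.5 gave 1 library per genotype and no test. Tff3 stood at 11.8 FPKM in percc1-/- and 12.1 FPKM in wild type, and Agr2 at 10.5 FPKM in percc1-/- and 12.502 FPKM in wild type. The other members read lower: in percc1-/- Fcgbp had 4.77, Spink4 4.74, Clca3 2.11, Zg16 1.04 and Reg4 0.716 FPKM, and in wild type Fcgbp had 6.61, Spink4 4.99, Clca3 2.65, Zg16 0.374 and Reg4 1.22 FPKM. Retnlb was listed at 0 in both. Every symbol member thus read lower at E14.5 than in any intestinal library of the same genotype after birth, except Retnlb, which intestinal libraries also list at 0.

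The first comparison between organs set large bowel against small intestine at P1 and P5, the stages they share, with 6 and 8 libraries and stage and genotype as covariates. Large bowel was higher in 5 of the 7 members tested and lower in none by limma with Benjamini-Hochberg adjustment at 0.05, where 38.1% of 12979 genes were called, 2593 of them higher and 2351 lower. The median member difference was 0.44 on the log2(FPKM + 1) scale, beside 0.03 over all genes. Fold changes on this scale understate the change of genes at low levels.

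Retnlb differed most, at 7.05 ± 6.16 FPKM in large bowel and 1.03 ± 2.04 FPKM in small intestine (SD; log2 difference 1.93 ± 0.39 SE, limma adjusted p = 0.00171), and stayed called in all 20 alternatives that gave it a value (difference 1.73 to 3.67, the highest with a pseudocount of 0.1, adjusted p 0.000313 to 0.0108). In wild-type libraries alone Retnlb lay under the filter of 1 FPKM and was not tested. Its large bowel mean was 12.06 ± 4.23 FPKM in percc1-/- and 2.04 ± 1.36 FPKM in wild type (SD, n = 3 each). Zg16 averaged 29.0 ± 11.9 FPKM in large bowel and 11.6 ± 8.92 FPKM in small intestine (1.62 ± 0.54, limma adjusted p = 0.0307). Its ranges overlapped, from 16.3 to 49.2 FPKM in large bowel and from 1.32 to 24.7 FPKM in small intestine. The Zg16 call ended without any 1 of 7 libraries: percc1-/- colon at P5 (0.0504), percc1-/- colon with rectum (0.0540), percc1-/- and wild-type rectum (0.0644 and 0.0603), percc1-/- bottom intestine at P1 (0.0518), and percc1-/- and wild-type bottom intestine at P5 (0.0621 and 0.0591). In wild-type libraries alone the Zg16 difference was 1.26 (limma adjusted p = 0.326, within a range of 0.00587 to 0.326 over 21 alternatives).

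Agr2 was the 1 member whose libraries did not overlap between the organs, with 36.3 to 53.1 FPKM in large bowel and 20.04 to 35.4 FPKM in small intestine (0.44 ± 0.13, limma adjusted p = 0.0174). How many of all genes lack such overlap was not counted. The Agr2 call ended with FPKM as deposited (0.0570) and without the pairs that carry markers of a neighbouring organ (0.0701, in a range of 0.00418 to 0.0701). Reg4 averaged 33.8 ± 7.08 FPKM in large bowel and 23.1 ± 6.00 FPKM in small intestine (0.53 ± 0.13, limma adjusted p = 0.00615), a call that ended without the pairs with neighbouring-organ markers (0.0909, in a range of 0.00160 to 0.0909). Spink4 averaged 32.7 ± 7.37 FPKM in large bowel and 23.6 ± 6.38 FPKM in small intestine (0.39 ± 0.13, limma adjusted p = 0.0267). The Spink4 call ended with FPKM as deposited (0.0828, in a range of 0.00685 to 0.0828) and without any 1 of 5 libraries: percc1-/- colon with rectum (0.0746), percc1-/- and wild-type top intestine at P5 (0.0598 and 0.0523), and percc1-/- and wild-type rectum (0.0537 and 0.0566).

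Tff3 and Clca3 did not pass. Tff3 averaged 38.3 ± 5.84 FPKM in large bowel and 35.1 ± 3.61 FPKM in small intestine (0.10 ± 0.09, limma adjusted p = 0.431), and Clca3 28.2 ± 12.7 FPKM in large bowel and 29.1 ± 5.66 FPKM in small intestine (−0.17 ± 0.23, limma adjusted p = 0.596). The Fcgbp+9530053A07Rik sum averaged 38.7 ± 6.60 FPKM in large bowel and 43.6 ± 7.05 FPKM in small intestine (−0.22 ± 0.09, limma adjusted p = 0.0885). It passed, in the same direction, without the percc1-/- bottom intestine at P5 (0.0277) and when records without a symbol over the gene were added (−0.67, adjusted p = 0.00583). Cell composition moved with organ: enterocyte markers were lower in large bowel for 8 of 10 tested (summed level 90.8 to 243 FPKM in large bowel and 367 to 560 FPKM in small intestine), and smooth muscle markers were higher for 6 of 6. Their part in these differences was not tested.

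**Figure D2:**
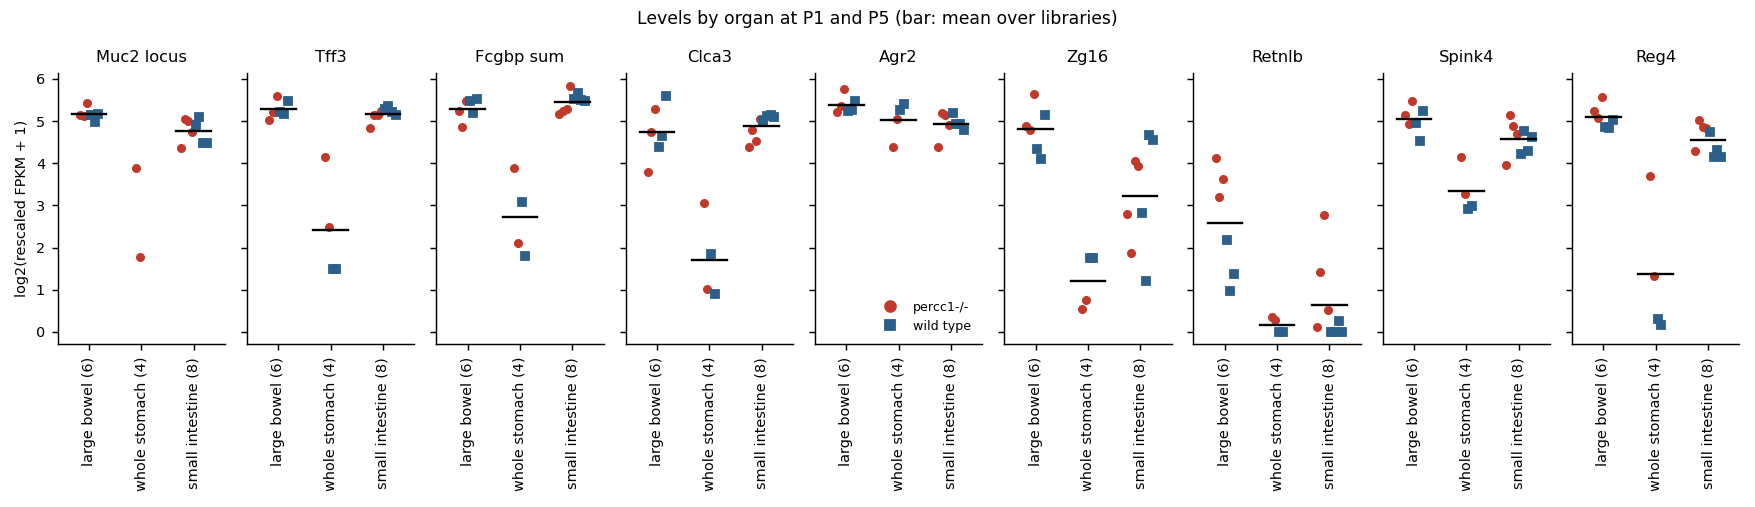
log2(rescaled FPKM + 1) of each gene in the P1 and P5 libraries of large bowel (6), whole stomach (4) and small intestine (8), percc1-/- as red circles and wild type as blue squares, with a bar at the mean (none for Muc2 in stomach). Agr2 does not overlap between large bowel and small intestine, and Tff3, Fcgbp, Clca3 and Reg4 do not overlap between stomach and small intestine.

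Whole stomach was set against the same 8 small intestine libraries at P1 and P5, with 4 stomach libraries. Stomach was lower in 5 of the 6 members tested and higher in none, where 43.7% of 13166 genes were called, 3121 of them higher and 2639 lower. The median member difference was −2.40, beside 0.03 over all genes. Because both comparisons use the same small intestine libraries, their values are given side by side only.

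At P1 and P5, Clca3 had 7.34 and 1.03 FPKM in percc1-/- stomach and 2.61 and 0.880 FPKM in wild-type stomach, against 19.8 to 34.4 FPKM in small intestine (−3.18 ± 0.34, limma adjusted p = 3.84e-05). Reg4 had 12.01 and 1.5005 FPKM in percc1-/- stomach and 0.235 and 0.118 FPKM in wild-type stomach, against 16.7 to 31.9 FPKM in small intestine (−3.18 ± 0.43, limma adjusted p = 0.000176). Tff3 had 16.8 and 4.64 FPKM in percc1-/- stomach and 1.83 and 1.84 FPKM in wild-type stomach, against 27.5 to 39.8 FPKM in small intestine (−2.75 ± 0.38, limma adjusted p = 0.000183). In these 3 genes no stomach library reached the lowest of small intestine, and the highest stomach value was each time the percc1-/- whole stomach at P1.

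Spink4 averaged 9.74 ± 4.84 FPKM in stomach and 23.6 ± 6.38 FPKM in small intestine (−1.24 ± 0.23, limma adjusted p = 0.00146), and the Fcgbp sum 6.80 ± 5.20 FPKM in stomach and 43.6 ± 7.05 FPKM in small intestine (−2.74 ± 0.30, limma adjusted p = 4.88e-05). Zg16 averaged 1.47 ± 1.04 FPKM in stomach and 11.6 ± 8.92 FPKM in small intestine (−2.04 ± 0.64, limma adjusted p = 0.0239), with overlapping ranges. The Zg16 call ended without the percc1-/- stomach at P1 (0.0854), the wild-type stomach at P1 (0.0586) or the percc1-/- stomach at P5 (0.0553), and in wild-type libraries alone (0.296, in a range of 0.00299 to 0.296 over 18 alternatives). Agr2 did not pass, at 32.6 ± 9.24 FPKM in stomach and 30.05 ± 5.23 FPKM in small intestine (0.09 ± 0.18, limma adjusted p = 0.726). Enterocyte markers were lower in stomach for 10 of 10 tested and gastric mucous markers higher for 4 of 7; their part in these differences was not tested.

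Among the 10 stomach libraries, summed enterocyte markers were highest in percc1-/- whole stomach at P1. Next came wild-type bottom stomach at P15 (152 FPKM) and percc1-/- bottom stomach at P10 (129 FPKM). The percc1-/- whole stomach at P1 was also the highest in Cdx2. It held 4.44 FPKM of Cdx2, the homeobox factor of intestinal identity, against 0.196 FPKM in its wild-type partner, and 183 FPKM of summed enterocyte markers against 84.3 FPKM. Without it the stomach against small intestine differences were −3.35 for Tff3, −3.86 for Reg4, −3.69 for Clca3, −1.55 for Spink4 and −1.76 for Zg16, where those of Tff3, Reg4, Clca3 and Spink4 kept their calls. The part of these genes in the member values of this library was not tested.

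Family relatives split between the organs. Muc5ac, the surface mucin of the stomach, had a median of 23.4 FPKM in 10 stomach libraries (1.10 to 64.0), against 0.083 FPKM in 14 of small intestine. Tff1, the gastric trefoil peptide, had a median of 107 FPKM in stomach (30.1 to 240.1), against 13.49 FPKM in small intestine (1.62 to 38.7). Spink5, a Kazal-type inhibitor of squamous epithelium, was higher in stomach at P1 and P5 (4.398 ± 0.57, limma adjusted p = 0.000122), and Spink3, a trypsin inhibitor, was lower (−1.60 ± 0.15, limma adjusted p = 1.96e-05). Of 16 relatives tested in that comparison, 5 were higher and 5 lower.

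Within the small intestine, bottom was set against top at P1 and P5 with 4 libraries each, and 0 of 7 members passed (limma; 1 member at an unadjusted p under 0.05, beside 6.71% of all genes), where 0.00782% of genes were called. Zg16 had 5.89 and 2.64 FPKM in percc1-/- bottom intestine and 6.08 and 1.32 FPKM in wild-type bottom intestine (P1, P5), against 15.5 and 14.2 FPKM in percc1-/- and 24.7 and 22.4 FPKM in wild-type top intestine. The bottom and top values did not overlap, yet the difference missed the adjustment over 12786 genes (−2.13 ± 0.31, limma unadjusted p = 0.000299, adjusted p = 0.478). Over 14 alternatives it lay between −2.60 and −1.78, with an adjusted p of 0.156 or more. Of the other 6 members, Retnlb differed most, at −0.50 ± 0.53 (limma adjusted p = 0.922). Exocrine pancreas markers read higher in bottom intestine for 0 of 9 tested (median −2.18) and gastric mucous markers for 0 of 6 (−1.96). None was called. Summed pancreas markers at P1 and P5 stood at 11.6 and 28.2 FPKM in percc1-/- and 178 and 233 FPKM in wild-type top intestine. In bottom intestine they stood at 8.99 and 9.17 FPKM in percc1-/- and 10.8 and 14.9 FPKM in wild type. The part of other tissue in the Zg16 difference was not tested.

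With age, older bottom intestine (P10 and P20) was set against younger (P1 and P5), 4 libraries each with genotype as covariate. All 7 members tested read higher in the older libraries, and 0 passed (limma; 2 at an unadjusted p under 0.05, beside 13.6% of all genes), where 0.124% of genes were called. Zg16 averaged 35.5 ± 19.7 FPKM in older and 3.98 ± 2.38 FPKM in younger bottom intestine (2.82 ± 0.51, limma adjusted p = 0.123), without overlap. By stage it read 5.89, 2.64, 26.2 and 48.2 FPKM at P1, P5, P10 and P20 in percc1-/- and 6.08, 1.32, 12.47 and 55.2 FPKM in wild type, so that both genotypes were lowest at P5 and highest at P20. Over 13 alternatives the Zg16 difference lay between 2.41 and 3.24, with adjusted p from 0.0599 to 0.568.

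Spink4 averaged 36.8 ± 8.92 FPKM in older and 23.2 ± 8.85 FPKM in younger bottom intestine (0.68 ± 0.28, limma adjusted p = 0.346), with overlapping ranges. Tff3, Clca3, Agr2, Retnlb and Reg4 had limma adjusted p-values of 0.489 or more. The Reg4 difference was 0.13 and turned to −0.05 without percc1-/- bottom intestine at P10 or at P1, and to −0.04 in wild-type libraries alone. The median member difference was 0.38, beside 0.01 over all genes. Among the other goblet cell genes listed, Ang4, an angiogenin of goblet and Paneth cells, was higher in older bottom intestine, at 12.2 ± 7.77 FPKM against 0.595 ± 0.50 FPKM in younger (2.94 ± 0.35, limma adjusted p = 0.0313). Paneth cell markers, Ang4 included, were higher for 4 of 10 tested, with Defa21 at 19.3 ± 9.13 FPKM in older and 0.266 ± 0.49 FPKM in younger libraries.

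**Figure D3:**
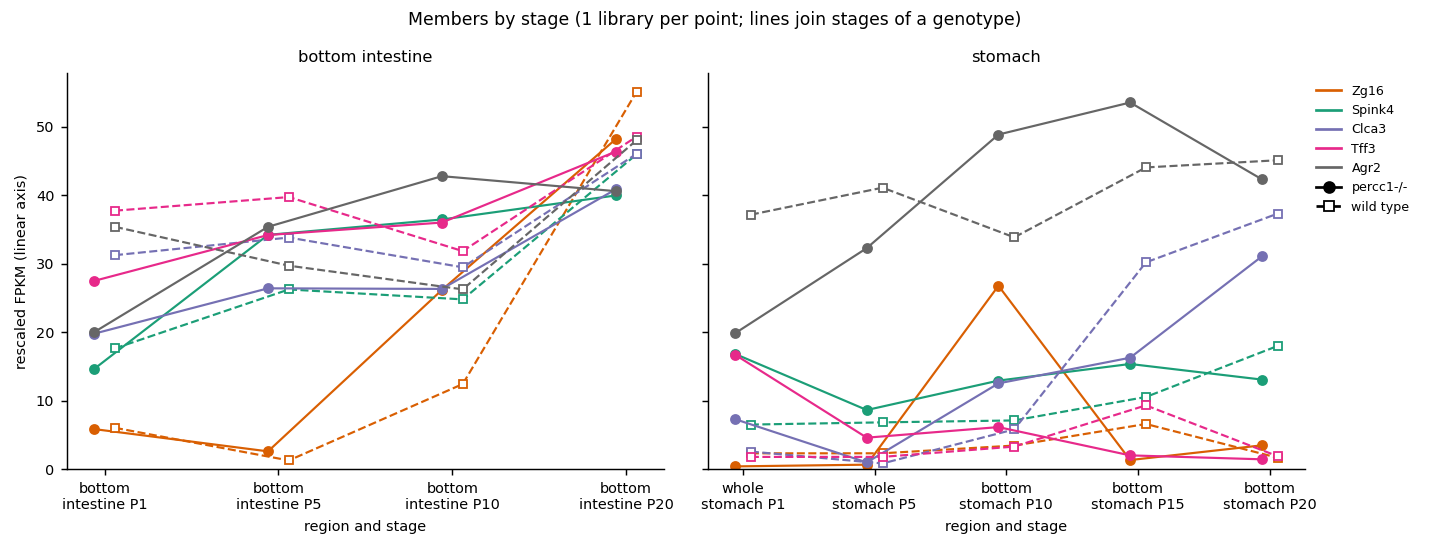
Rescaled FPKM of Zg16, Spink4, Clca3, Tff3 and Agr2 by stage in bottom intestine and in stomach, solid lines for percc1-/- and dashed lines for wild type. Stomach lines join the whole organ (P1, P5) to its bottom part (P10 to P20). Zg16 in bottom intestine is lowest at P5 and highest at P20 in both genotypes, and Clca3 in stomach ends at 31.1 FPKM in percc1-/- and 37.4 FPKM in wild type.

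In stomach the part taken changed with stage, so values by stage are described without a test. Clca3 read 7.34, 1.03, 12.6, 16.3 and 31.1 FPKM in percc1-/- at P1, P5, P10, P15 and P20, and 2.61, 0.880, 5.85, 30.2 and 37.4 FPKM in wild type. The Fcgbp record, never merged in stomach, read 13.1, 3.16, 14.2, 22.6 and 22.7 FPKM in percc1-/- and 6.95, 2.35, 6.86, 27.2 and 22.4 FPKM in wild type. Both genes thus had their lowest stomach value at P5 and their highest at P15 or P20 in each genotype. Tff3 did not follow them, with 1.48 FPKM in percc1-/- and 1.93 FPKM in wild type at P20, nor did Reg4, with 0.266 FPKM in percc1-/- and 0.067 FPKM in wild type at that stage. Within the bottom part alone, Clca3 was lowest at P10 and highest at P20 in both genotypes. Between P5 and P10 stage and the part taken cannot be told apart.

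Colon and rectum at P5 gave 2 libraries each, compared without a test. Clca3 had 38.4 FPKM in percc1-/- and 47.7 FPKM in wild-type rectum, against 12.97 FPKM in percc1-/- and 19.9997 FPKM in wild-type colon. Zg16 had 49.2 FPKM in percc1-/- and 34.3 FPKM in wild-type rectum, against 28.8 FPKM in percc1-/- and 19.1 FPKM in wild-type colon. Tff3 had 47.1 FPKM in percc1-/- and 43.7 FPKM in wild-type rectum, against 31.7 FPKM in percc1-/- and 36.2 FPKM in wild-type colon. In these genes both rectum libraries stood above both colon libraries, whereas Retnlb was lower in rectum than in colon in each genotype (11.4 against 16.6 FPKM in percc1-/-, 1.59 against 3.57 FPKM in wild type).

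The genotypes were compared first in large bowel, with 3 pairs and the pair as a block. None of the 7 members tested passed (limma with Benjamini-Hochberg adjustment; 4 at an unadjusted p under 0.05, beside 9.96% of all genes), where 0.0150% of 13369 genes were called. The median member difference, percc1-/- minus wild type, was 0.28, beside −0.01 over all genes. Retnlb, Zg16, Reg4 and Spink4 were higher in percc1-/- in 3 of 3 pairs, and the Fcgbp sum was lower in 3 of 3.

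Retnlb had 8.19, 16.6 and 11.4 FPKM in percc1-/- colon with rectum, colon and rectum, against 0.959, 3.57 and 1.59 FPKM in wild type. The 3 percc1-/- libraries all stood above the 3 of wild type. The 95% bounds deposited with the values, rescaled alike, did not overlap in any pair: 6.56 to 9.81 against 0.403 to 1.52 FPKM in colon with rectum, 14.51 to 18.6 against 2.49 to 4.65 FPKM in colon, and 9.30 to 13.52 against 0.841 to 2.34 FPKM in rectum. Such bounds concern the precision within a library and do not measure the spread between animals. The mean log2 difference was 2.14 ± 0.14 (SE), with an unadjusted p of 1.54e-05 and an adjusted p of 0.0562 by limma, just outside the threshold. Over 10 alternatives it lay between 2.09 and 2.64, with adjusted p from 0.0220, with FPKM as deposited, to 0.552, without the colon pair.

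Zg16 had 26.6, 28.8 and 49.2 FPKM in percc1-/- colon with rectum, colon and rectum, against 16.3, 19.1 and 34.3 FPKM in wild type (0.58 ± 0.08, limma adjusted p = 0.339). Reg4 had 32.6, 37.0 and 46.3 FPKM in percc1-/-, against 27.4, 27.9 and 31.5 FPKM in wild type (0.39 ± 0.09, limma adjusted p = 0.404). Spink4 had 29.7, 34.3 and 43.7 FPKM in percc1-/-, against 21.9, 30.02 and 36.7 FPKM in wild type (0.28 ± 0.09, limma adjusted p = 0.452). The genotypes overlapped in Zg16 and Spink4 and did not overlap in Reg4. For Reg4 and Retnlb alike, the share of all genes without overlap between the genotypes was not counted.

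The remaining members of large bowel had smaller mean differences between the genotypes or read lower in percc1-/-. Tff3 averaged 38.4 ± 7.93 FPKM in percc1-/- and 38.3 ± 4.72 FPKM in wild type, and Agr2 43.1 ± 8.78 FPKM in percc1-/- and 39.3 ± 3.83 FPKM in wild type. Clca3 averaged 25.8 ± 12.7 FPKM in percc1-/- and 30.6 ± 14.97 FPKM in wild type (limma adjusted p = 0.608), and the Fcgbp sum 36.2 ± 7.93 FPKM in percc1-/- and 41.3 ± 5.21 FPKM in wild type (−0.20 ± 0.09, limma adjusted p = 0.540). The Muc2 records differed by 0.13 ± 0.07 on the log2 scale, higher in 3 of 3 pairs (exact two-sided sign-flip permutation test p = 0.25, the smallest that 3 pairs allow).

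Some genes of other cells and of the Reg and resistin-like families had values that went with those of Retnlb in large bowel. Retnlg, a resistin-like gene known from neutrophils in the mouse, had 7.99, 11.8 and 1.34 FPKM in percc1-/- colon with rectum, colon and rectum, against 0.824, 0 and 0 FPKM in wild type. Cxcl1, a neutrophil-attracting chemokine, had 4.77, 5.62 and 2.43 FPKM in percc1-/-, against 0.352, 0.476 and 1.10 FPKM in wild type. Reg3g, an antibacterial lectin, had 24.8, 39.8 and 7.63 FPKM in percc1-/-, against 5.25, 10.7 and 0.637 FPKM in wild type (2.08 ± 0.15, limma adjusted p = 0.0562). The 7 leukocyte markers summed to 31.6, 23.8 and 26.5 FPKM in percc1-/- and to 25.8, 22.7 and 24.5 FPKM in wild type. Higher values were not particular to these genes. In percc1-/- large bowel 13 of 13 family relatives (median 0.86) and 6 of 6 gastric mucous markers (0.72) read higher, beside 6441 of 13369 genes. None on either list was called, and some genes are on both lists. The percc1-/- colon at P5 held 73.5 FPKM of gastric mucous markers, against 10.1 FPKM in wild type. The sum went the other way in colon with rectum (3.48 FPKM in percc1-/-, 3.98 in wild type) and in rectum (0.831 and 1.96). The rise of the gastric markers thus came from the colon pair. The part of any of these in the Retnlb difference was not tested. Cxcl1 was chosen for its likeness to Retnlb across these libraries, so its agreement follows from the choice.

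In small intestine, with 7 pairs, 0 of 7 members passed (limma; 2 at an unadjusted p under 0.05, beside 10.1% of all genes), where 0.117% of 12772 genes were called. Reg4 averaged 27.7 ± 6.74 FPKM in percc1-/- and 19.9 ± 3.13 FPKM in wild type and was higher in 6 of 7 pairs (0.43 ± 0.15, limma adjusted p = 0.393). Clca3 averaged 28.0 ± 6.97 FPKM in percc1-/- and 33.3 ± 6.47 FPKM in wild type and was lower in 6 of 7 pairs (−0.26 ± 0.10, limma adjusted p = 0.454). In both genes the genotypes overlapped.

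Retnlb in small intestine had 5.89, 0.427 and 0 FPKM in percc1-/- top intestine at P1, P5 and P15, against 0.188, 0 and 0 FPKM in wild type. In bottom intestine at P1, P5, P10 and P20 it had 0.086, 1.68, 9.39 and 0.502 FPKM in percc1-/-, against 0, 0, 0 and 5.07 FPKM in wild type. It was higher in percc1-/- in 5 pairs, lower in 1, the bottom intestine at P20, and listed at 0 in both libraries of 1 (0.85 ± 0.55, limma adjusted p = 0.649). Its mean was 2.57 FPKM in percc1-/- and 0.751 FPKM in wild type, so it reached the filter of 1 FPKM only through percc1-/-. The Retnlb difference was 0.43 without the bottom intestine pair at P10, 1.33 without that at P20, and 2.19 with a pseudocount of 0.1 (limma adjusted p = 0.811, 0.285 and 0.517). Tff3, Agr2, Zg16, Spink4 and the Fcgbp sum had limma adjusted p-values of 0.721 or more. The Muc2 records averaged 31.5 ± 8.20 FPKM in percc1-/- and 28.3 ± 9.41 FPKM in wild type, higher in 4 of 7 pairs (exact two-sided sign-flip permutation test p = 0.328; 7 pairs allow 0.0156).

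In stomach, with 5 pairs, 0 of 7 members passed (limma; 0 at an unadjusted p under 0.05, beside 4.6% of all genes), where 0.0226% of 13266 genes were called. Retnlb was too low there to be tested, and Fcgbp was tested by its own record. Spink4 averaged 13.4 ± 3.11 FPKM in percc1-/- and 9.84 ± 4.86 FPKM in wild type, higher in 4 of 5 pairs (0.48 ± 0.22, limma adjusted p = 0.988). Reg4 had 12.01, 1.5005, 1.97, 0.198 and 0.266 FPKM in percc1-/- at P1, P5, P10, P15 and P20, against 0.235, 0.118, 1.40, 1.003 and 0.067 FPKM in wild type (0.87 ± 0.53, limma adjusted p = 0.988). The genotypes overlapped in both. Tff3 at P1 was 16.8 FPKM in percc1-/- and 1.83 FPKM in wild type, in the pair whose percc1-/- library carries intestinal genes. Zg16 at P10 was 26.8 FPKM in percc1-/- and 3.49 FPKM in wild type, in the pair whose percc1-/- library holds more exocrine pancreas RNA. The part of these other tissues was not tested.

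**Figure D4:**
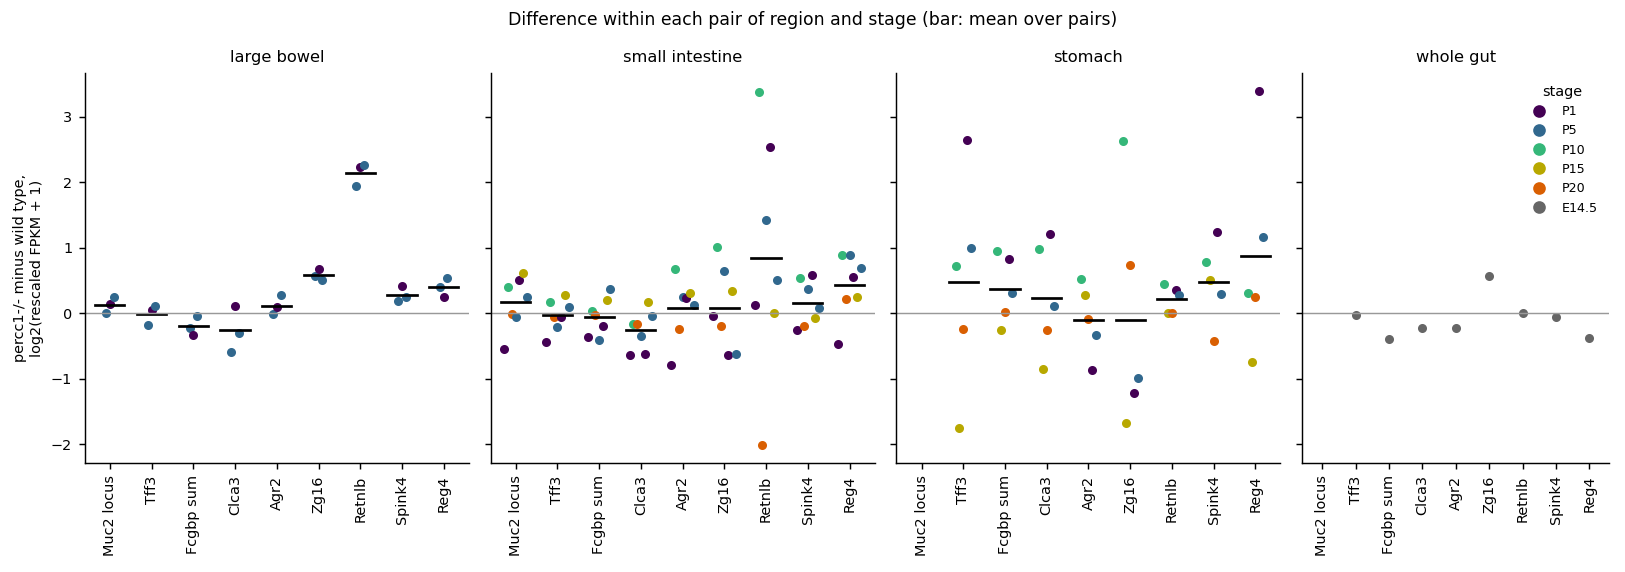
Difference of log2(rescaled FPKM + 1), percc1-/- minus wild type, for each gene and pair in large bowel (3 pairs), small intestine (7), stomach (5) and whole gut (1), coloured by stage, with a bar at the mean. In large bowel the 3 Retnlb points lie near 2 and those of Zg16, Reg4 and Spink4 above 0, while the stomach points are spread widely for Tff3, Zg16 and Reg4.

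Over all 16 pairs, 0 of 7 members passed (limma; 3 at an unadjusted p under 0.05, beside 13.2% of all genes), where 0.887% of 13084 genes were called. The median member difference was 0.15, beside −0.000948 over all genes. Retnlb was higher in percc1-/- in 12 pairs and lower in 1, and 3 pairs listed it at 0 in both libraries (0.84 ± 0.31, limma adjusted p = 0.223). The Retnlb mean reached the filter of 1 FPKM only through the percc1-/- libraries. Pairs counted as higher include values near 0, such as 0.097 against 0.092 FPKM in bottom stomach at P15. Another was 0.086 against 0 FPKM in bottom intestine at P1, and no stomach library exceeded 0.452 FPKM. Reg4 was higher in 13 of 16 pairs (0.51 ± 0.21, limma adjusted p = 0.286) and Spink4 in 11 of 16 (0.26 ± 0.10, limma adjusted p = 0.239). Without the 6 pairs that carry markers of a neighbouring organ the differences were 0.74 for Retnlb, 0.17 for Reg4 and 0.11 for Spink4 (limma adjusted p = 0.648, 0.797 and 0.801, with 0.0703, 0.194 and 0.135 as the smallest adjusted p over 24 alternatives). Clca3 was lower in 11 of 16 pairs (−0.10 ± 0.13, limma adjusted p = 0.794), and Tff3, Agr2, Zg16 and the Fcgbp sum had adjusted p-values of 0.840 or more.

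Whether the genotype difference itself varied between organs or with age was tested by interaction terms, and no member passed any of the 3 (limma; 0 of 7 in each at an unadjusted p under 0.05). Called genes made up 0.00776% of those tested for large bowel minus small intestine, 0.0153% for stomach minus small intestine and 0% for older minus younger small intestine. Genes at an unadjusted p under 0.05 made up 4.25% for large bowel minus small intestine, 4.69% for stomach minus small intestine and 5.86% for older minus younger small intestine. The Retnlb difference was 1.29 ± 0.91 larger in large bowel than in small intestine on the log2 scale (limma adjusted p = 0.999). A p that misses the threshold does not show that the organs responded alike.

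Genes that act around these products were described by lists. Over all pairs, 0 of 16 secretory lineage regulators, 0 of 26 genes of mucin glycosylation and export and 0 of 19 other goblet cell genes passed between the genotypes (limma). Of 15 family relatives, 2 were higher in percc1-/-, the antibacterial lectins Reg3g (1.503 ± 0.30, limma adjusted p = 0.0198) and Reg3b (1.32 ± 0.27, limma adjusted p = 0.0232), and none was lower. Both belong to the Reg family of Reg4. Reg3g averaged 23.4 ± 20.4 FPKM in percc1-/- and 13.2 ± 28.9 FPKM in wild type, with the highest library of all being the wild-type bottom intestine at P20, at 117 FPKM, where percc1-/- had 51.0 FPKM. In the same pair Retnlb was also higher in wild type.

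Between large bowel and small intestine the lists moved in both directions. Of 16 lineage regulators, 8 were higher in large bowel and 2 lower, among them Atoh1, which specifies secretory cells (1.18 ± 0.23, limma adjusted p = 0.00127), Foxa2 (1.10 ± 0.24, limma adjusted p = 0.00271) and, lower, the Notch ligand Dll1 (−1.25 ± 0.18, limma adjusted p = 0.000193). Of 27 genes of mucin glycosylation and export, 15 were higher and 6 lower. The glycan-branching enzymes split, with Gcnt1 higher (1.29 ± 0.17) and Gcnt4 lower (−1.41 ± 0.16), and Rab27a, a small GTPase of granule transport, was higher (0.68 ± 0.10). Of 19 other goblet cell genes, 9 were higher and 3 lower, with the bestrophin channel Best2 at 6.99 ± 5.95 FPKM in large bowel and 0.327 ± 0.55 FPKM in small intestine.

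Between stomach and small intestine the same lists fell on both sides. Of 16 lineage regulators, 6 were higher in stomach and 4 lower. The intestinal factors Cdx1 (−3.39 ± 0.23, limma adjusted p = 3.24e-06) and Cdx2 (1.25 ± 2.12 FPKM in stomach and 20.4 ± 2.21 FPKM in small intestine) were lower, and Klf4, a factor of goblet and surface epithelial cells, was higher (23.1 ± 2.32 FPKM in stomach and 13.1 ± 2.30 FPKM in small intestine). Of 27 genes of glycosylation and export, 8 were higher and 8 lower. St6galnac1, which adds sialic acid to mucin, was lower (−3.89 ± 0.49) and Qsox1, which forms disulfide bonds, higher (0.87 ± 0.10). Of 17 other goblet cell genes, 1 was higher and 10 were lower, such as the membrane mucin Muc13 (9.37 ± 5.12 FPKM in stomach and 66.5 ± 14.46 FPKM in small intestine).

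Across the 30 postnatal libraries the likeness of the members was measured on the log2 scale and is described without a test because the libraries share organs and animals may be shared. Tff3 and Reg4 were most alike (Pearson r = 0.97), followed by the Fcgbp sum and Clca3 (0.93). Spink4 was about equally like Reg4, the Fcgbp+9530053A07Rik sum and Tff3 (0.817, 0.813 and 0.811), whereas Agr2 had r between −0.28 and 0.36 with the other members. The members were also compared with the 13029 genes outside the member list that had a mean of at least 1 FPKM. Of these, the most like Tff3 was Cdh17, an intestinal cadherin (0.991), and the most like Reg4 was Cldn3, a tight junction claudin (0.972). Spink4 was most like Cisd3 (0.934), and Atoh1 was also among its nearest genes (0.891). Outside the member list, the Fcgbp sum and Clca3 were both most like Ppp1r1b (0.925 and 0.855), less than they were like each other. Zg16 was most like Arhgef38 (0.845). Retnlb was most like 1700066B19Rik (0.819), followed by Cxcl1 (0.792).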

How the data were processed

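Total RNA of dissected digestive tract was sequenced in 32 libraries, from stranded libraries with ribosomal RNA removed, per the labels' protocols. The authors deposited 1 gene table per library with FPKM values and their 95% lower and upper bounds, per the file headers. The submitters' processing notes name the mm9 build, Cufflinks 2.2.1, TopHat2 2.0.13 and SAMtools 0.1.18; for the annotation, a version was not given in the sources used here. Gene positions on mm9 come from GENCODE vM1. Cufflinks assigns fragments by likelihood, so near-identical or overlapping genes may share fragments, and symbol records held between 16.8% and 60.2% of the FPKM sum of a library. No depth is given.

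Records of 1 symbol were summed, and each library was divided by its size factor, a median of ratios to geometric means (0.864 to 1.378). limma 3.58.1 in R 4.3.3, with a trended and robust variance prior, tested log2(FPKM + 1) of genes whose mean in a fit reached 1 FPKM. P-values are two-sided, adjusted over all genes of the fit by Benjamini and Hochberg and called under 0.05. Genotype fits had the pair of region and stage as a block. Organ and age fits had stage and genotype, or genotype alone, as covariates. A gene in a merged record in any library left that fit, so Fcgbp was tested as the sum with 9530053A07Rik, a choice made after the files were seen. Muc2 was compared by an exact sign-flip test over pairs. The fits were tested on simulated data.

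The members and all lists were chosen with earlier results of these data known. Genes were named by a rule: all members, of each other list up to 4 called genes and up to 2 that did not pass, relatives by level, and the 8 genes most correlated with Muc2. Muc2 had no symbol record, so the last was applied to each other member. Not every such gene is printed, and the alternatives are given with the closing observations.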

Additional observations from a re-analysis of the deposited data

Results flagged for a closer look

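In each group of 4 to 10 libraries, an organ and genotype, the highest and the lowest value of a member were compared with the nearest other by Dixon's criterion. Of 37 groups tested, 5 held a library far from the others. The criterion's rate of about 1 in 20 assumes normal values from 1 population. These groups pool stages and parts of an organ, and Fcgbp was counted both alone and in its sum. The rate is therefore not the share that chance would give here. Zg16 stood at 26.8 FPKM in percc1-/- bottom stomach at P10, the highest of 5 percc1-/- stomach libraries, in a library with 399 FPKM of summed exocrine pancreas markers. Reg4 stood at 12.01 FPKM in percc1-/- whole stomach at P1, the highest of 5, in a library with 183 FPKM of summed enterocyte markers. Tff3 stood at 9.36 FPKM in wild-type bottom stomach at P15, the highest of 5 wild-type stomach libraries, where percc1-/- had 2.06 FPKM. Enterocyte markers summed to 152 FPKM in that wild-type library and to 96.9 FPKM in its percc1-/- partner. In wild-type bottom intestine at P20, Retnlb stood at 5.07 FPKM and Spink4 at 46.0 FPKM, each the highest of 7 wild-type small intestine libraries, where percc1-/- had 0.502 FPKM of Retnlb and 40.0 FPKM of Spink4. The part of other tissue in the stomach values was not tested.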

How the results depend on the processing

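Of 1311 member values recomputed under alternatives, 1287 kept their direction or stayed uncalled on their side of the threshold, 21 lost a call, 3 gained one and 0 called values changed sign; the lost and gained calls stand beside their results. Counts of all genes called were less stable. Leaving out 1 pair or library at a time gave 68 to 184 over all pairs (116 in full), 2 to 19 in small intestine (15), 1 to 3 in stomach (3), 0 to 1 in large bowel (2), 2 to 4 and 0 to 3 for the interactions of large bowel and of age (1 and 0), 0 to 7 for bottom against top (1), 0 to 67 for age in bottom intestine (16), and 3 to 5 members for large bowel against small intestine (5). The labels give no replicate numbers and pairs come from region and stage; with no replicate block the counts were 22 over all pairs, 1 in stomach and 4 in large bowel, and no member gained a call. A pseudocount of 0.1 gave 5, 1 and 0 genes in small intestine, stomach and large bowel, 4 and 1 for the interactions of large bowel and age, and 0 for bottom against top. No filter on low values gave 3 in small intestine, 0 in large bowel, 2 and 4 for the interactions of large bowel and stomach, and 2 for age. FPKM as deposited gave 7 in stomach, 7 in large bowel with 1 member, Retnlb, 3 members for large bowel against small intestine, 3 for bottom against top and 25 for age. Wild-type libraries alone gave 3 members for large bowel against small intestine, 54 genes for bottom against top and 0 for age. Without pairs with neighbouring-organ markers the counts were 15, 2, 8 and 0 over all pairs, small intestine, stomach and large bowel, and 2695 genes with 3 members for large bowel against small intestine, the last chosen after seeing the data. Without the pairs with a record inside the stated positions, also chosen after seeing the data, they were 41, 5, 1 and 0. Averaging the pairs within stages left 2 genes over all pairs. The cause of these changes was not tested. Groups of 3 to 8 libraries and unknown depth limit all of them.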

Other observations

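Enteroendocrine markers, outside the goblet lineage, were called higher in percc1-/- for 2 of 8 tested over all pairs, where 0.887% of 13084 genes were called. As a list they moved little: 5 of 8 read higher, with a median difference of 0.04. In large bowel 3 of 8 read higher (median −0.07). Chgb, a granin of hormone granules, averaged 18.04 ± 5.57 FPKM in percc1-/- and 12.8 ± 4.56 FPKM in wild type (0.49 ± 0.07, limma adjusted p = 0.00203), and Chga 17.7 ± 7.38 FPKM in percc1-/- and 13.3 ± 7.02 FPKM in wild type (0.41 ± 0.09, limma adjusted p = 0.0282). Exocrine pancreas markers read lower in percc1-/- for 9 of 9 tested over all pairs, with 0 passing the adjustment (limma), where 6488 of 13084 genes read higher. The direction varied between pairs. The summed level was 11.6 FPKM in percc1-/- and 178 FPKM in wild-type top intestine at P1, and 399 and 131 FPKM in bottom stomach at P10. It was also higher in percc1-/- in top intestine at P15, bottom intestine at P20, colon and rectum at P5 and colon with rectum at P1.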
